A study of Mus musculus with 2 samples.

Results

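Pparg, Ppara, the adiponectin gene Adipoq, its receptors Adipor1 and Adipor2, and the lipid genes Lpl, Cd36, Fabp4, Plin2 and Scd1 were examined in epithelial cells of the submandibular gland from a young and an aged mouse. These 10 genes were taken by name, with all 25 of their probes, out of 37003 named genes on the array. The cells were collected on magnetic beads against EpCAM from females of the strain C57BL/6, 1 mouse and 1 array at 9 weeks (young) and the same at 24 months (aged), with no treatment named for either. RNA was labelled with Cy3 and hybridized to Agilent arrays of 60-base probes, 2 arrays on the same slide. With 1 array per age, no test between the ages was possible, and no difference has a replicate check. According to the methods, the young and the aged mice came from different suppliers, so that source and age cannot be told apart.

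PPARγ (Pparg) and PPARα (Ppara) are nuclear receptors that bind fatty acids and their derivatives, pair with a retinoid X receptor and switch on genes of lipid storage or lipid oxidation. Adiponectin is a hormone secreted by fat cells, under control of PPARγ, and it signals through the membrane receptors AdipoR1 and AdipoR2. Lpl, Cd36, Fabp4, Plin2 and Scd1 are classic genes of the same pathway and cover the release, uptake, binding, storage and desaturation of fatty acids.

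The signal of a probe is its background-subtracted brightness, given with the error from the scanner software, and is expressed as log2 of the signal over the 75th percentile of all non-control spots of its array. This percentile came to 256 (young) and 198 (aged). Differences are aged minus young on this log2 scale, and a difference of 1 is 2-fold. The errors cover the measurement of single spots and not the spread between mice. A probe is called detected where the software rated it well above background. Of the 25 probes, 18 were detected at both ages, 1 in the young only and 6 at neither age. The cells carried the epithelial marker Epcam, with signals of 1778 (young) and 1573 (aged), and the keratin gene Krt8, with 3.70e+04 and 2.92e+04. Markers of other cells were detected too, such as Lyz2 (macrophage list) with 2.38e+04 and 4884 and Dcn (fibroblast list) with 3475 and 1360. A signal is thus not that of epithelial cells alone.

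By the brightest probe of each gene, Lpl was the only one of the 10 genes to differ by 2-fold or more, and it was lower on the aged array. Pparg and Ppara were lower by less than 2-fold, as was Plin2 by its brighter probe only. Adipor1, Adipor2, Fabp4 and Scd1 had differences of 0.17 to 0.30. Of these brightest probes, those of Adipor1 and Fabp4 kept their sign under every setting, and only Adipor1 did so in most of its probes. The kept sign says little, since both values fell far below their errors of 0.20. The lowest were 0.04 for Adipor1 (loess scaling) and 0.003 for Fabp4 (arrays set level on spike-in controls). The main Adipor1 difference of 0.30 was above that of 71.5% of all genes measured on both arrays. Cd36 differed least, and Adipoq was detected at neither age. Of the 9 genes measured, 1 was thus at least 2-fold lower and 0 were at least 2-fold higher. Among the 18745 genes measured on both arrays, 3.05% were at least 2-fold lower and 1.52% at least 2-fold higher. With limits for genes measured on 1 array included, these shares were 5.14% and 2.53% of 21346 genes. The median difference of the 9 genes was -0.11, beside 0.09 for all genes measured on both arrays, and 5 of the 9 were below 0, beside 40.1% of all genes.

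**Figure D1:**
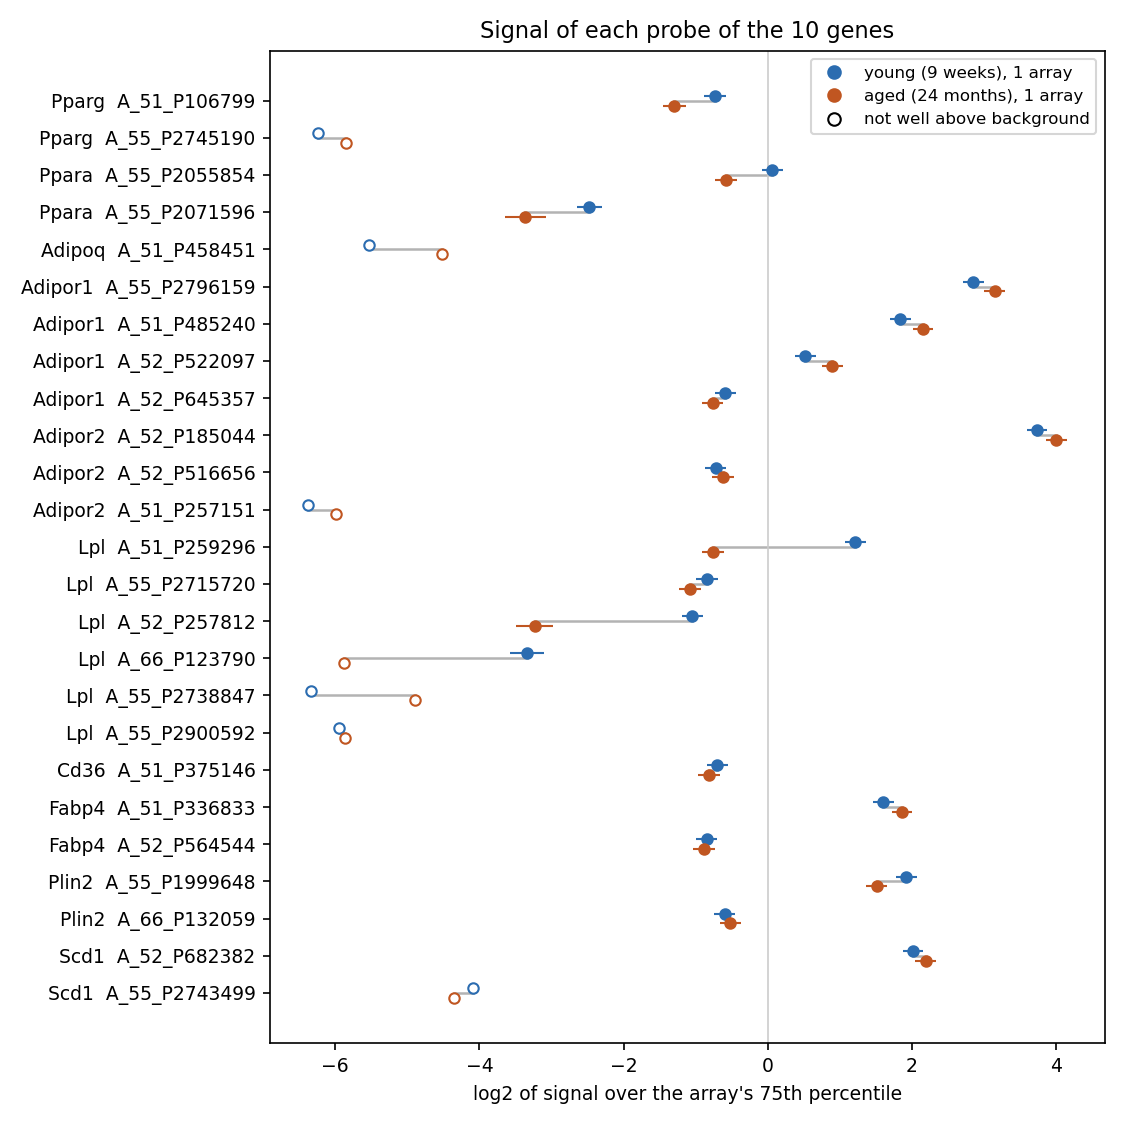
Signal of all 25 probes of the 10 genes, as log2 over the 75th percentile of the array, on the young (blue) and the aged (orange) array, 1 array each. Bars on filled circles are the error of the scanner software, open circles are undetected signals drawn without bars, and the widest gaps between filled circles are those of 2 Lpl probes, with differences of -1.97 and -2.19.

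Pparg was measured by the probe A_51_P106799 (RefSeq NM_011146), at 115440213 to 115440272 of chromosome 6 (build NCBI37, also called mm9, as for all positions below). Its signal was 154 ± 15.8 (young) and 80.6 ± 8.73 (aged), a log2 level of -0.73 and -1.30. The difference was -0.56 ± 0.21 (error of the scanner software), or 1.48-fold lower, and lay between -0.82 and -0.33 over the 8 other settings tried. Of all genes measured on both arrays, 7.93% had a lower difference. The second Pparg probe, A_55_P2745190, which the files match only to the Ensembl transcript ENSMUST00000203896, was detected at neither age, and the software wrote a substitute value for both.

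Ppara, the receptor known for driving fatty acid oxidation, had 2 probes, both detected at both ages and both with a lower value in the aged sample. The brighter one (A_55_P2055854, chromosome 15, 85632110 to 85632169) had a signal of 268 ± 27.0 (young) and 132 ± 13.7 (aged). This is a difference of -0.65 ± 0.21, or 1.56-fold lower, and it lay between -0.90 and -0.47 over the other settings. The dimmer probe (A_55_P2071596, 85637193 to 85637252) had signals of 46.1 ± 5.61 and 19.2 ± 3.76, a difference of -0.89 ± 0.33. The probes differ from each other by 0.24 ± 0.39, less than the error. Only the dimmer probe changed its side of 2-fold with the scaling, at -1.15 with the arrays set level on spike-in controls and -1.002 with the percentile taken over detected probes, and it came to -0.05 with the normexp background correction.

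The single Adipoq probe (A_51_P458451, NM_009605, chromosome 16, 23157576 to 23157635) was detected at neither age, with signals of 5.51 ± 3.30 (young) and 8.59 ± 3.41 (aged). Detected probes began at a signal of 14.1 (young) and 14.3 (aged), so that an adiponectin transcript below this brightness was not detectable and no fold was given. Of 8 other genes that mark fat cells, 3 were detected at neither age. Plin1 and Cidec, which coat the large droplet of the fat cell, and Acvr1c were missed at both ages, and Cfd and Retn were detected in the young only. Of the 8 fat cell markers, Lep, Lipe and Cidea were measured on both arrays, with differences of -0.05, -0.40 and 0.27. Their signals were 415 (young) and 309 (aged) for Lep, 253 and 148 for Lipe, and 68.3 and 63.5 for Cidea.

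Both adiponectin receptors were detected at both ages. Adipor1 had 4 probes, all detected in both samples. After scaling, 3 of them differed by 0.30 ± 0.20, 0.31 ± 0.20 and 0.37 ± 0.20. The dimmest (A_52_P645357) differed by -0.17 ± 0.21. The brightest, A_55_P2796159 (chromosome 1, 136328244 to 136328303), had signals of 1845 ± 185 (young) and 1757 ± 176 (aged). Its difference was above that of 71.5% of all genes measured on both arrays. The gap between the dimmest probe and the others was at most 1.87 times its error. Under the loess and the spike-in scaling, the difference of the brightest probe shrank to 0.04, whereas the 3 probes stayed above 0 under every setting.

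Adipor2 was measured by 2 probes, at 3409 ± 341 and 3175 ± 318 for A_52_P185044 (chromosome 6, 119303222 to 119303281) and at 155 ± 15.9 and 129 ± 13.3 for A_52_P516656. Their differences were 0.27 ± 0.20 and 0.10 ± 0.21, and the sign of each changed under at least 1 other scaling, to as low as -0.05 and -0.16. Another probe, A_51_P257151, matched to ENSMUST00000188851 only, was detected at neither age. For each receptor 1 probe crosses at least 1 intron, since the files place the first and the last of its 60 bases 1046 bases apart for Adipor1 (136321459 to 136322504) and 2350 bases apart for Adipor2 (119309501 to 119311850). Their sequences are shown because they match spliced RNA, 5′ to 3′ as in the files and without capitals, since no base is singled out:
Adipor1 A_52_P522097: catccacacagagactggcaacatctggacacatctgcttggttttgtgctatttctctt
Adipor2 A_52_P516656: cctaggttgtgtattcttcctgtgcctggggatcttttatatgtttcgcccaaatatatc
The Adipor1 signals there were 367 ± 36.8 (young) and 367 ± 36.9 (aged), so that the difference of 0.37 is that of the 75th percentiles by which the signals were divided.

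Lpl encodes lipoprotein lipase, which releases fatty acids from circulating triglycerides and is made by fat and muscle cells and by macrophages. Its brightest probe, A_51_P259296 (NM_008509, chromosome 8, 71430267 to 71430326), had a signal of 593 ± 59.4 (young) and 116.8 ± 12.02 (aged). The log2 level went from 1.21 to -0.76, a difference of -1.97 ± 0.21, or 3.92-fold lower, and 0.491% of the genes measured on both arrays had a lower difference. It lay between -2.23 and -1.65 over the other settings and so was at least 2-fold under each of them.

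Of the other Lpl probes for NM_008509, 1 gave a like value and 1 only a bound. A_52_P257812 (71425050 to 71425109) had signals of 124 ± 12.8 and 21.0 ± 3.73, a difference of -2.19 ± 0.30, or 4.56-fold lower, which came to -0.93 with the normexp correction. A_66_P123790 (71419652 to 71419711) was detected in the young only, with 25.2 ± 4.19, and was at least 1.37-fold lower in the aged sample, where a substitute stands in place of a signal. Their sequences are shown because, with the brightest probe, they read separate stretches of the same transcript:
Lpl A_52_P257812: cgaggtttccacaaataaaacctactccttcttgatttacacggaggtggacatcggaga
Lpl A_66_P123790: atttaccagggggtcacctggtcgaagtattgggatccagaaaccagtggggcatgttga

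A further Lpl probe disagreed with these. A_55_P2715720 (71413311 to 71413370), which the files match to ENSMUST00000101463 and not to NM_008509, had signals of 143 ± 14.7 and 93.8 ± 10.1, a difference of -0.23 ± 0.21. Its gap to the brightest probe was -1.74 ± 0.30 (brightest minus this probe), or 5.83 times the error, the largest such multiple among the probe pairs of the 10 genes, and its gap to A_52_P257812 was 1.96 ± 0.37. Bases 25 to 46 of this probe, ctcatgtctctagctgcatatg, contain stretches of at least 20 bases that also occur in the promoter windows of 5 other genes in RefSeq (GRCm38.p6). No other probe of the 10 genes shared 20 bases with a promoter window or with a probe of another gene, on either strand. Whether this probe reads RNA other than Lpl was not tested. The remaining 2 Lpl probes, matched to ENSMUST00000213071, were detected at neither age.

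**Figure D2:**
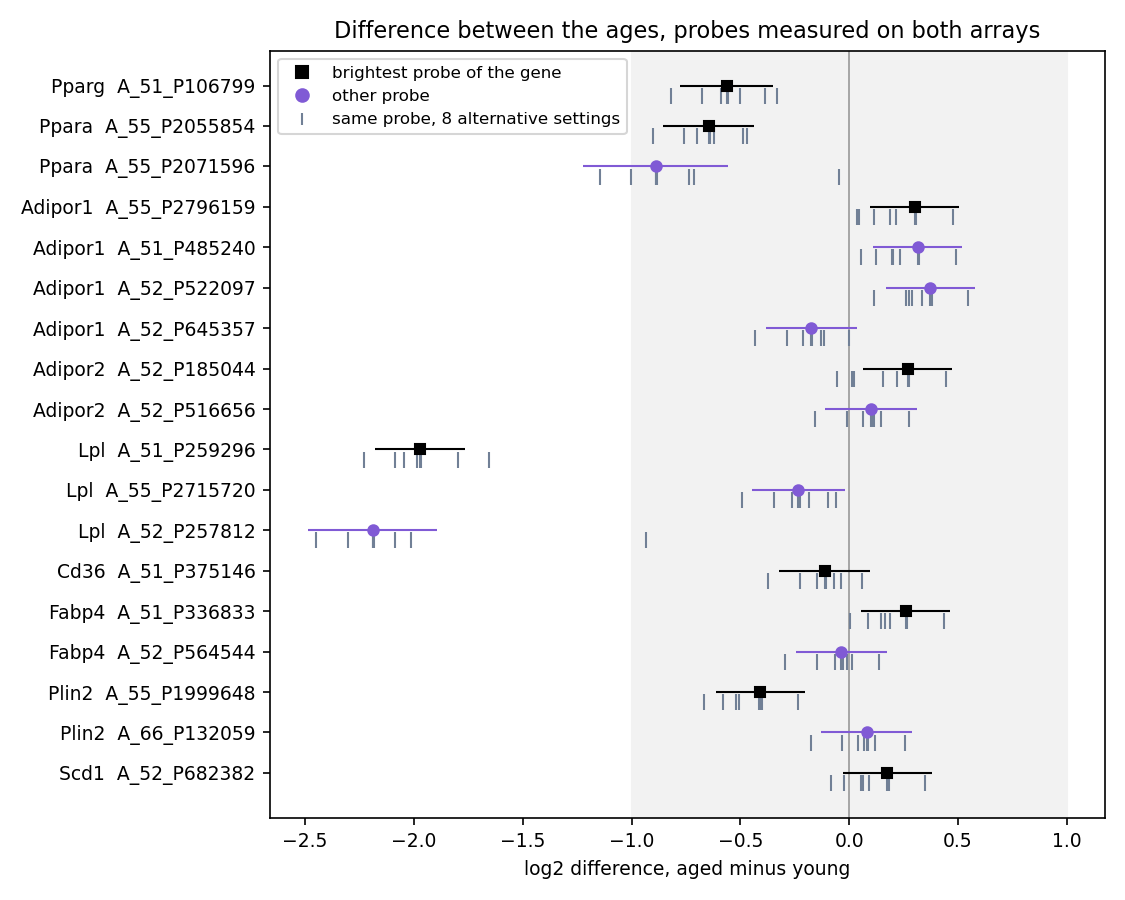
Log2 difference, aged minus young, of the 18 probes detected at both ages, with the error of the scanner software as bars. Squares are the brightest probe of a gene, ticks are the values under 8 alternative settings, and the grey band is under 2-fold, outside which only 2 Lpl probes lie by their main value.

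Cd36, a membrane receptor for long-chain fatty acids, had 1 probe (A_51_P375146, NM_007643, chromosome 5, 17288600 to 17288659). Its signals were 157 ± 16.1 and 112 ± 11.8, a difference of -0.11 ± 0.21, under its error and above 0 with the arrays centred on their medians (0.06). Fabp4, a cytosolic carrier of fatty acids known from fat cells, macrophages and endothelium, had signals of 777 ± 77.8 and 719 ± 72.0 at A_51_P336833 (chromosome 3, 10204452 to 10204511). Its difference was 0.26 ± 0.20, and came to only 0.003 with the arrays set level on spike-in controls. The second probe, A_52_P564544 (10208442 to 10208501), read 142 ± 14.5 and 107 ± 11.1, a difference of -0.04 ± 0.21, so that no direction can be given for Fabp4. This probe is shown because its difference has the opposite sign to that of the brighter probe:
Fabp4 A_52_P564544: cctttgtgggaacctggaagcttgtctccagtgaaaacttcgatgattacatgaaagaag

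Plin2, which coats the lipid droplets of most cells, had signals of 970 ± 97.0 and 565 ± 56.6 at its brighter probe (A_55_P1999648, NM_007408, chromosome 4, 86302847 to 86302906). The difference was -0.41 ± 0.20, or 1.33-fold lower, and lay between -0.67 and -0.23 over the other settings. The dimmer Plin2 probe, A_66_P132059, differed by 0.08 ± 0.21, and the gap between the probes was 1.67 times its error. The lower value of Plin2 thus rests on the brighter probe alone. Scd1, a desaturase that makes monounsaturated fatty acids, differed by 0.17 ± 0.20 (A_52_P682382, chromosome 19, 44469387 to 44469446), with signals of 1035 ± 104 and 903 ± 90.3, and its sign changed under 2 other settings. The second Scd1 probe, which the files place on the opposite strand to the first, was detected at neither age.

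Lists of the wider pathway held 140 genes, and 122 of them were detected at 1 age or both. Of the 113 detected at both, 2 were at least 2-fold lower (Ppargc1a and Lipa) and 1 at least 2-fold higher (Fitm2), and no limit of the other 9 reached 2-fold. Their median difference was 0.05, beside 0.09 for all genes. Over all genes measured on both arrays, 3.05% were lower and 1.52% higher by that rule.

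Among the 18 partners and coregulators of the nuclear receptors, all measured on both arrays, 13 were below 0 and the median was -0.17. For all genes measured on both arrays, 40.1% were below 0 and the median was 0.09. Ppargc1a, which encodes the coactivator PGC-1α of PPARγ and PPARα, fell from a signal of 1764 ± 176 to 633 ± 63.4, a difference of -1.11 ± 0.20, or 2.15-fold lower. A second Ppargc1a probe differed by -1.35, and the first was under 2-fold (-0.93) with the arrays centred on their medians. Cebpd, a transcription factor of early fat cell differentiation, was at 3.40e+04 and 4.86e+04, a difference of 0.88 ± 0.20. Taken up after their values were seen, the related coactivator Ppargc1b differed by -0.72, Cebpb by 0.67, and the retinoid X receptor genes Rxra, Rxrb and Rxrg by -0.11, 0.21 and -0.16. Another probe of the coactivator gene Ncoa3 passed 2-fold, with -1.72, beside -0.06 for its brightest probe.

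Adiponectin signalling and adipokines held 20 genes, 15 of them detected at both ages, with 0 past 2-fold and a median of 0.08. The largest differences were those of Cdh13, a cadherin that binds adiponectin, with 0.58 ± 0.43 at signals of 14.93 and 17.19, near the lowest detected, and of the leptin receptor Lepr, with 0.56 ± 0.20. A second Lepr probe gave -0.23. For fatty acid uptake, binding and activation, 14 of 24 genes were detected at both ages, with 0 past 2-fold and a median of 0.05. Slc27a3, of the fatty acid transport protein family, differed by -0.93 ± 0.21, and Gpihbp1, which anchors lipoprotein lipase on capillaries, by 0.51.

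Synthesis, desaturation and esterification of fatty acids had 24 of 26 genes measured on both arrays and 0 past 2-fold, with a median of 0.02. The desaturase gene Scd3 differed by -0.83 and the lipogenic transcription factor gene Srebf1 by 0.70. Scd3 and Scd1 belong to one gene family, and the probes of Scd3 disagreed, with -0.83 and -0.01. The probes of the desaturase gene Fads2 disagreed most, with -0.47 for the brightest, 1.70 and 0.35 for 2 others and a limit of -2.28 for the last. Acaca, which encodes an acetyl-CoA carboxylase, differed by -0.20 and -0.40, and a probe detected in the aged only had a limit of 2.60. In fatty acid oxidation and ketogenesis, 30 of 34 genes were measured on both arrays, all between -0.47 and 0.47, with a median of 0.06. The extremes were Cpt1a, the gate for entry of fatty acids into mitochondria, and Acox3, a peroxisomal oxidase whose other 3 probes lay between -0.42 and -0.15.

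The list of droplet coats and lipolysis had a median of 0.21 over 12 of its 18 genes and held the widest spread. Lipa, which encodes the acid lipase of lysosomes, went from 95.57 ± 10.03 to 28.2 ± 4.16, a difference of -1.39 ± 0.26, or 2.62-fold lower, and reached only -0.52 with the normexp correction. Fitm2, which encodes a protein of the endoplasmic reticulum that aids droplet formation, went from 43.9 ± 5.63 to 71.7 ± 8.01, a difference of 1.08 ± 0.25, or 2.11-fold higher. It was under 2-fold with the spike-in scaling, the normexp correction and the percentile over detected probes.

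**Figure D3:**
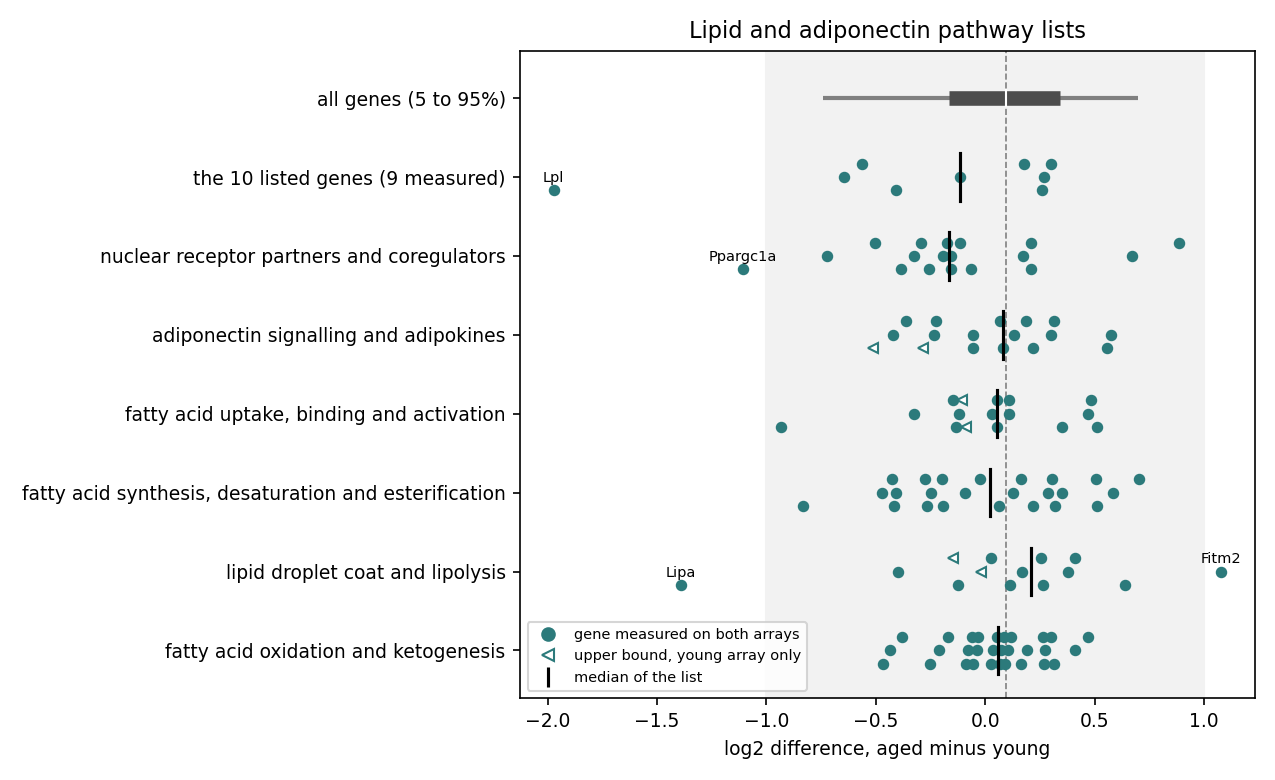
Log2 difference, aged minus young, of the genes of 6 pathway lists and of the 10 genes described here, by the brightest probe, with the 5 to 95% and 25 to 75% ranges of all genes on top. Black lines are medians, triangles are limits of genes measured on the young array only, the grey band is under 2-fold, and the named genes lie outside it.

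Markers of other cells also differed between the arrays. Below 0 lay all 9 macrophage, 5 of 6 fibroblast and 6 of 8 endothelial markers measured on both arrays. For all genes measured on both arrays, this share was 40.1%. Thy1, of the fibroblast list, went the other way, with 0.34. Of 9 macrophage markers, 8 were lower by 2-fold or more, beside 3.05% of all genes measured on both arrays. By the brightest probes, differences ran from -1.91 (Lyz2) to -0.62 (Csf1r). The second probe of Csf1r differed by only -0.08. That of Lyz2 differed by -1.94, and the other Cd68 probes gave -1.47 and a limit of -1.75. The summed level of the macrophage markers over the 75th percentile, most of it from Lyz2 and Csf1r, went from 142 to 51.8. Adgre1, which encodes F4/80, differed by -1.36, Mrc1 by -1.88, Fcgr1 and Aif1 both by -1.56, C1qb by -1.23, and C1qa and Cd68 both by -1.06. With median centring, Cd68 and C1qa were under 2-fold (-0.89 and -0.88), as were C1qa and Fcgr1 (-0.57) with normexp. Of 8 fibroblast markers, 3 were at least 2-fold lower as measured (Col1a1 with -1.81, Col3a1 with -1.73 and Col1a2 with -1.44) and Pdgfra by its limit. With limits included, 5.14% of all genes were at least 2-fold lower. The summed level of the fibroblast markers, most of it from Dcn, went from 19.2 to 9.38. With normexp, Col1a1 reached only -0.78 and Pdgfra only -0.19. The part of these cells in the differences of Lpl and Lipa was not tested, and fewer cells of a type cannot be told apart from less RNA per cell in bulk samples.

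The 9 endothelial markers had a median of -0.56 over the 8 measured on both arrays, with Pecam1 at 0.10, Cdh5 at -0.57 and 0 past 2-fold, and their summed level went from 10.6 to 7.91. The 5 fat cell markers that were kept summed to 3.07 and 2.71. The sums of the epithelial and acinar markers were 505 (young) and 564 (aged) and 3675 and 4458. Most of the epithelial sum came from Krt18 and Krt8, and most of the acinar sum from Dcpp1 and Prol1. Of the 6 acinar markers, 3 were below 0, among them Muc19 with -0.89. In these lists, Epcam, Cdh1, Aqp5 and Bhlha15 differed by 0.20, 0.06, 0.49 and -0.04, the keratin gene Krt19, detected in the young only, was at least 1.85-fold lower, and Smgc, a secretory gene of the submandibular gland, differed by -1.79. The sum of the myoepithelial and basal markers was 67.4 and 75.4, most of it from Trp63. The contractile genes Myh11 and Cnn1 differed by -1.83 and -2.14. The brightest probe of Acta2, also a contractile gene, differed by -0.08, whereas its other 2 probes were lower, by -1.96 and by a limit of -2.11. Another Myh11 probe gave 0.12, and with normexp the brightest one reached only -0.49.

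**Figure D4:**
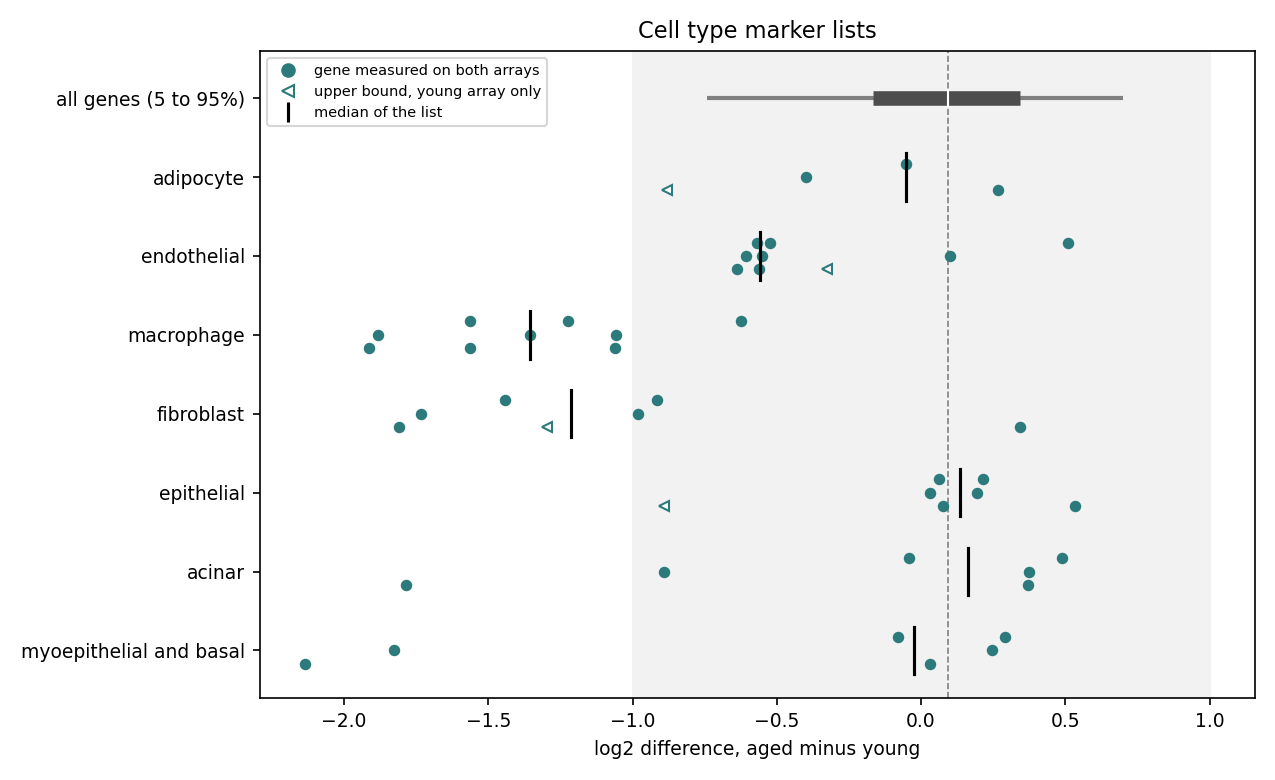
Log2 difference, aged minus young, of the marker genes of 7 cell types by the brightest probe, drawn as in the plot of the pathway lists. All 9 macrophage markers and 5 of the 6 fibroblast markers measured on both arrays lie below 0, whereas the 6 epithelial markers measured on both arrays lie above 0 and the limit of Krt19 is -0.89.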

How the data were processed

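Expression was compared between 1 young and 1 aged array of EpCAM-positive submandibular gland cells. The authors scanned the arrays and deposited the intensity of each spot from Agilent Feature Extraction 12.0.3.1, background-subtracted and detrended, with no scaling between arrays. The files name the build NCBI37 (mm9). The authors' processed table holds the ratio of this intensity to the 75th percentile of the array (GeneSpring) and was an alternative.

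Here, log2 of the intensity minus log2 of the 75th percentile of the 59305 non-control spots was used, with 2-fold as the threshold, as the methods name both. Outlier spots (90 and 93) were left out and no spot was saturated. The brightest probe well above background on at least 1 array stood for its gene. A gene dim on 1 array was given a limit, computed against the higher of its own signal and the lowest signal well above background. Probes were named by their RefSeq accession where it matched (33762 of 56597) and otherwise as in the files. Well above background were 55.4% (young) and 50.8% (aged) of spots. Over 285 probes with repeated spots, the median SD of the difference was 0.03 (log2), within these arrays only.

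The 10 genes, the pathway lists and the markers were chosen with earlier results of these data known. Named were all 10 genes, list genes past 2-fold or else the 2 largest differences of a list, and the first 2 markers of a list and those past 2-fold, and any other name was added after its values were seen. Alternatives were 7 other scalings, backgrounds or tables, keeping outlier spots, 3 filters and 2 ways to join probes. R 4.3.3 with limma 3.58.1 and Python 3.11.15 were used. The calls were also run on simulated arrays with known folds past the threshold, which checks the code and not the differences reported here.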

Additional observations from a re-analysis of the deposited data

How the results depend on the processing

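Lpl was the only one of the 10 genes at least 2-fold lower under all 13 alternatives, and the count of higher genes was 0 except without a filter on dim probes, where it was 1 (Adipoq, detected at neither age). Of 144 probe values under the alternatives, 2 moved past 2-fold and 1 under it, as given with Ppara and Lpl, and 23 moved by their error or more, 16 of them with the spike-in controls, which shift the median of all genes by -0.26. Centring on the median shifted it by 0.17, the loess by -0.14 and the percentile over detected probes by -0.11.

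For the pathway lists, the count of higher genes (1) was 2 with median centring and with the mean over probes, 0 with the percentile over detected probes, the spike-in controls and normexp, 7 without a filter and 4 by any probe. The count of lower genes (2) was 1 with median centring and normexp, 4 with the spike-in controls and by any probe, and 7 without a filter. Over all genes, 539 were higher and 1098 lower, so that 32.9% of those past 2-fold were higher, a share of 48.1% with median centring and 17.7% with the spike-in controls. The number higher was 348 with the spike-in controls. Counts were 182 and 297 with normexp, 285 and 571 with probes measured on both arrays only, and 1685 and 2416 without a filter. The cause of these changes was not tested, other than that filters change which probes are counted. No paired analysis was possible because each age has 1 array and the labels carry no replicate numbers, and for the same reason no array could be left out. The number of arrays and, for dim probes, the signal over background limit the precision.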

Other observations

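The half-site letters AGGTCA, to which receptors of this family bind, were searched on both strands in RefSeq promoter windows (GRCm38.p6) from 250 bases before to 50 after each start. They occurred in 4 of the 10 windows found for 7 of the genes, and in 16.3% of 32851 windows overall. These 4 windows belong to 3 genes, Pparg, Plin2 and Cd36, with Pparg counted more than once. The direct repeat AGGTCANAGGTCA occurred in 0 of the 10 windows and in 0.0396% overall. Lpl, Fabp4 and Scd1 were not searched.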
